A study of Mus musculus with 12 samples.

Results

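AP-1 and immediate early genes are 10 transcription factor genes, Fos, Fosb, Fosl1, Fosl2, Jun, Junb, Jund, Egr1, Atf3 and Klf6, taken by gene name from a table of 54532 mouse genes. All 10 were found once in the table and all 10 passed the filter on low counts that left 24642 genes for testing. RNA-seq had been run on whole kidneys of 12 C57BL/6 mice (C57BL/6 J in the study's methods), 18 days old, in 4 groups of 3. Every mouse carried the hypomorphic Pkd1 RC allele over a floxed Pkd1 allele. Noncystic mice (Pkd1 RC/+, labelled control) had no Cre, so their floxed allele was intact. Cystic mice (Pkd1 RC/-) also carried Ksp-Cre, which is driven by a kidney epithelial cadherin promoter and recombines in tubule cells, so that other kidney cells keep the floxed allele. Within each of these classes the mice were Pkd2 +/+ or Pkd2 Δ17/Δ17 (labelled Pkd2_UTR_DD), where the Δ17 allele lacks the miR-17 motif of Pkd2 in the germline. Mice 19, 20 and 21 were noncystic and Pkd2 +/+, and mice 22, 23 and 24 were their Pkd2 Δ17/Δ17 counterparts. Mice 25, 26 and 27 were cystic with intact Pkd2, and mice 28, 29 and 30 were cystic with both Pkd2 motifs deleted.

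AP-1 is a dimer of a Fos family protein with a Jun family protein, or of Jun family proteins with each other or with ATF proteins, and it binds short DNA elements in promoters and enhancers. Fos, Fosb, Jun, Junb, Egr1, Atf3 and Klf6 are switched on within minutes of growth factor, stress or injury signals, through MAP kinases and factors such as SRF, Elk and CREB that already sit on their promoters. In the kidney these genes are known to be induced in tubules after ischaemia and other injury, and handling of fresh tissue is known to induce them as well.

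CREB/ATF and Jun/ATF elements are a textbook route of rapid induction, and the windows of the 4 genes that hold one near the start are shown for that reason. Promoters from 250 bases before to 50 bases after the start were taken from RefSeq on GRCm38.p6, where 8 of the 10 genes had an entry and Fosl1 and Egr1 did not. Capitals mark the match, and each window is 30 bases read 5′ to 3′ on the strand of the gene.
Fos, chr12:85473812-85473841, plus strand: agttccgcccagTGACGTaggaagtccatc
Atf3, chr1:191183324-191183353, minus strand: attaatagcattACGTCAgcctgggattgg
Jun, chr4:95052249-95052278, minus strand: aagcctcggggTGACATCAtgggctatttt
Klf6, chr13:5861359-5861388, plus strand: ttggtgcgagcTGACATCAtcgtcgcgcag
The Fos and Atf3 windows hold TGACGT, the core of the cyclic AMP response element, which begins at base -66 of Fos and lies on the opposite strand from base -8 of Atf3. The Jun and Klf6 windows hold TGACATCA, the element of the Jun promoter that Jun and ATF proteins bind, from base -45 and base -119. Fosb, Fosl2, Junb and Jund held neither element, and called rises in cystic kidneys (below) were found among genes with and without one. Both strands of 32851 promoters of the same length were searched, and 7.51% held TGACGT while 3.62% held TGACATCA. The general AP-1 site TGANTCA was found in 0 of the 8 promoters and in 7.81% of all promoters, and the CArG box of SRF in 0 of the 8 and in 1.63% of all. TATAAA was found in Fos and Junb among the 8, and in 13.6% of all promoters. Elements outside this window, and any of Fosl1 and Egr1, were not searched, so a count of 0 does not show that a gene lacks the element. These matches are letters in a window and were not measured as binding here.

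The mice had 18800307 to 24453033 counted reads each. Values are given as CPM, read counts scaled to each library's size and composition by the TMM method, and as log2 fold changes with the standard error (SE) from edgeR's quasi-likelihood test, Benjamini-Hochberg adjusted over the 24642 genes. Fosb was the thinnest, with 6 to 13 reads in each noncystic mouse, and Fos had 25 reads in the mouse where it was lowest. Pkd2 was higher in Pkd2 Δ17/Δ17 than in Pkd2 +/+ kidneys of the cystic class (log2 fold change 0.53, SE 0.08, edgeR adjusted p = 0.00250). In the noncystic class its groups did not overlap either (0.40, SE 0.08), but the adjusted p was 0.771 (edgeR, unadjusted p = 8.21e-05). The kidney markers Cdh16 and Pax8 were detected in every mouse (at least 1287 and 58.5 CPM). No mouse pair had counts that agree within sampling noise.

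Divided by exon length in kilobases (RPKM), so that genes could be ranked, the Jun family dominated the set in noncystic Pkd2 +/+ kidneys. Jund, the Jun family member that is expressed in resting cells, was highest at 31.3 ± 5.603 RPKM (SD, n = 3). Jun, at 22.8 ± 1.55 RPKM, and Junb, at 22.5 ± 4.75 RPKM, could not be ordered beyond their spread, nor could Junb and Klf6 (15.9 ± 1.63 RPKM). Fosl2 (5.40 ± 0.5004 RPKM) was the highest Fos family gene and stood above Egr1 (4.43 ± 0.669 RPKM). Atf3, Fos and Fosl1 lay between 1.73 and 2.21 RPKM with overlapping values, and Fosb was lowest at 0.0705 ± 0.0254 RPKM. The ranks of Jund and Fosl1 are uncertain. Of their exon bases, 877 of 1668 and 1163 of 2033 overlap a gene on the opposite strand, and the strand setting of the counting is not given.

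In cystic Pkd2 +/+ kidneys the order changed at the top and in the middle. Junb had the highest mean, 54.9 ± 4.08 RPKM, although its values overlapped those of Jund (45.4 ± 7.14 RPKM). Egr1 rose past Fosl2 without overlap, to 17.7 ± 1.32 against 8.88 ± 1.20 RPKM. Fos (7.50 ± 1.62 RPKM) and Atf3 (6.67 ± 1.35 RPKM) now stood above Fosl1 (1.85 ± 0.272 RPKM) and Fosb (0.346 ± 0.0610 RPKM). The 4 Fos family genes together made up 10.8 ± 0.590% of the summed Fos and Jun family RPKM in noncystic and 11.9 ± 1.66% in cystic Pkd2 +/+ kidneys, with overlapping values of 10.1 to 11.2% and 10.6 to 13.8%. In Pkd2 Δ17/Δ17 kidneys this share was 12.01 ± 1.08% in noncystic and 12.7 ± 2.34% in cystic mice. The shares include Fosl1 and Jund, whose RPKM values are uncertain because of the overlapping genes.

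**Figure D1:**
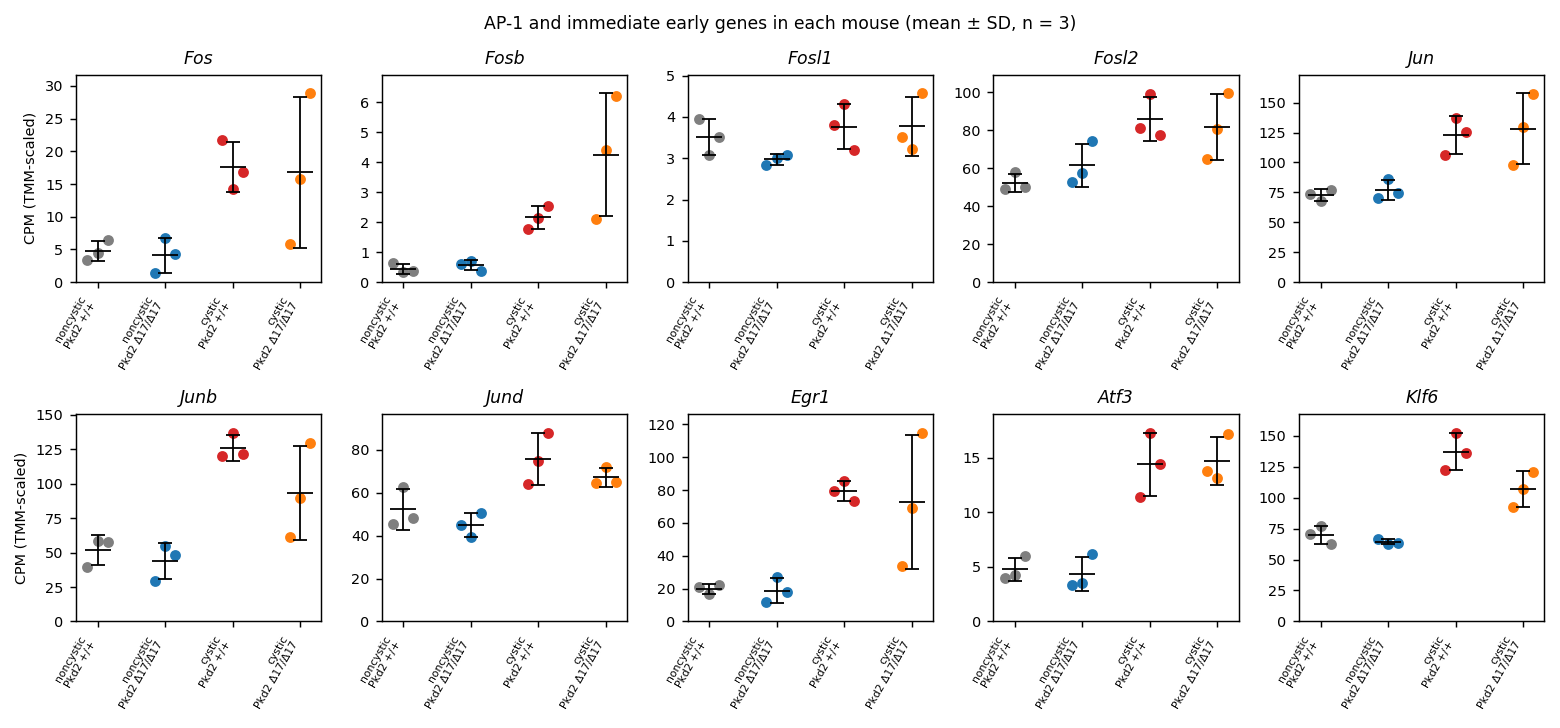
CPM (linear axes from 0, scaled by TMM) of each of the 10 genes in every mouse, 1 point per mouse, with the mean and SD of each group of 3 mice as bars. In 9 panels the red points (cystic, Pkd2 +/+) lie above all grey points (noncystic, Pkd2 +/+), the exception being Fosl1, and the orange points (cystic, Pkd2 Δ17/Δ17) are the most spread for Fos, from 5.82 to 28.9 CPM.

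Cystic and noncystic kidneys with intact Pkd2 were compared to ask which of these genes differ with cystic disease. Every cystic mouse carried Ksp-Cre and no noncystic mouse did. Cre and cystic disease therefore cannot be told apart, here or among Pkd2 Δ17/Δ17 mice. Of the 10 genes, 9 were higher in cystic kidneys and 0 lower, where 16.9% of all genes tested were called higher. The same 9 genes had no overlap between the groups, against 41.7% of all genes tested in either direction. The median log2 fold change of the 10 genes was 1.13 and that of all genes tested was 0.02. In bulk tissue, more cells that express a gene and more RNA per cell cannot be told apart.

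Among the Fos family, Fos, the inducible partner of Jun, was at 3.32, 4.504 and 6.41 CPM in noncystic mice 19, 20 and 21 and at 21.8, 14.2 and 16.9 CPM in cystic mice 25, 26 and 27. Every cystic mouse lay above every noncystic one, and mouse 26, the lowest of the cystic mice, was still well above mouse 21, the highest of the noncystic mice. The log2 fold change was 1.89 (SE 0.48, edgeR adjusted p = 0.00579). Fosb, a relative of Fos that is induced with it, was at 0.623, 0.342 and 0.356 CPM in noncystic and at 1.78, 2.15 and 2.54 CPM in cystic mice. These groups did not overlap, and the log2 fold change of 2.27 (SE 0.42, edgeR adjusted p = 0.000436) was the largest of the 10, resting on 6 to 12 reads per noncystic mouse. Fosl2, a Fos family member with a more sustained expression, was at 49.0, 57.9 and 50.1 CPM in noncystic and at 81.2, 99.3 and 77.5 CPM in cystic mice. It too rose without overlap, by a log2 fold change of 0.72 (SE 0.15, edgeR adjusted p = 0.00115).

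Fosl1, the fourth Fos family gene and one that AP-1 itself is known to induce in proliferating cells, was at 3.95, 3.08 and 3.51 CPM in noncystic and at 3.79, 4.31 and 3.20 CPM in cystic mice. The groups overlapped, with a log2 fold change of 0.10 (SE 0.20, 95% interval -0.33 to 0.53, edgeR adjusted p = 0.768). This interval leaves room for a moderate rise or fall. Of the 2033 exon bases of Fosl1, 1163 overlap Ccdc85b on the opposite strand, which had 823 to 1335 reads per mouse, and since the strand setting of the counting is not given in the sources used here, the Fosl1 value is uncertain.

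The Jun family rose less than Fos, Fosb and Egr1 in fold, from higher levels. Jun, the main transactivating partner, was at 73.5, 67.6 and 77.4 CPM in noncystic and at 106, 137 and 125 CPM in cystic mice. The groups were separate (log2 fold change 0.75, SE 0.14, edgeR adjusted p = 0.000415). Junos, a transcript antisense to Jun that shares 232 exon bases with it, rose as well (log2 fold change 1.76, SE 0.25, edgeR adjusted p = 3.69e-05), on 14 to 148 reads per mouse, and reads in the shared bases cannot be assigned without strand.

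Junb, which can restrain Jun on some targets, was at 39.2, 58.2 and 58.0 CPM in noncystic and at 120.3, 137 and 121 CPM in cystic mice. Every cystic value lay above every noncystic one, with a log2 fold change of 1.28 (SE 0.23, edgeR adjusted p = 0.000380). Jund was at 45.6, 62.9 and 48.1 CPM in noncystic and at 64.2, 74.9 and 88.0 CPM in cystic mice. Its groups nearly touched, between mouse 20 and mouse 25, and its rise was the smallest of the 9 (log2 fold change 0.54, SE 0.13, edgeR adjusted p = 0.00393). Junb shares 173 exon bases with Prdx2 on the opposite strand. Of the 1668 exon bases of Jund, 877 overlap Gm11175 on the opposite strand, which had 0 reads in every mouse. Reads in shared bases cannot be assigned without strand, so this 0 does not show that all Jund reads were counted. The Jund value is therefore uncertain as well.

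Outside the Fos and Jun families, Egr1, a zinc finger factor driven by ERK and SRF, was at 21.1, 16.4 and 22.02 CPM in noncystic and at 79.4, 85.4 and 73.5 CPM in cystic mice. The cystic mice were tightly grouped far above the noncystic mice (log2 fold change 1.999, SE 0.33, edgeR adjusted p = 0.000151). Atf3, a stress-induced ATF protein that dimerizes with Jun proteins, was at 3.998, 4.28 and 6.002 CPM in noncystic and at 11.4, 17.2 and 14.5 CPM in cystic mice. It rose without overlap by a log2 fold change of 1.59 (SE 0.23, edgeR adjusted p = 4.55e-05). Klf6, a Krüppel-like factor of the early injury response, was at 70.4, 76.7 and 62.4 CPM in noncystic and at 122, 152 and 136 CPM in cystic mice. Its log2 fold change of 0.97 had the smallest error of the set (SE 0.10) and the lowest adjusted p of the 10 (edgeR, 2.38e-06).

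**Figure D2:**
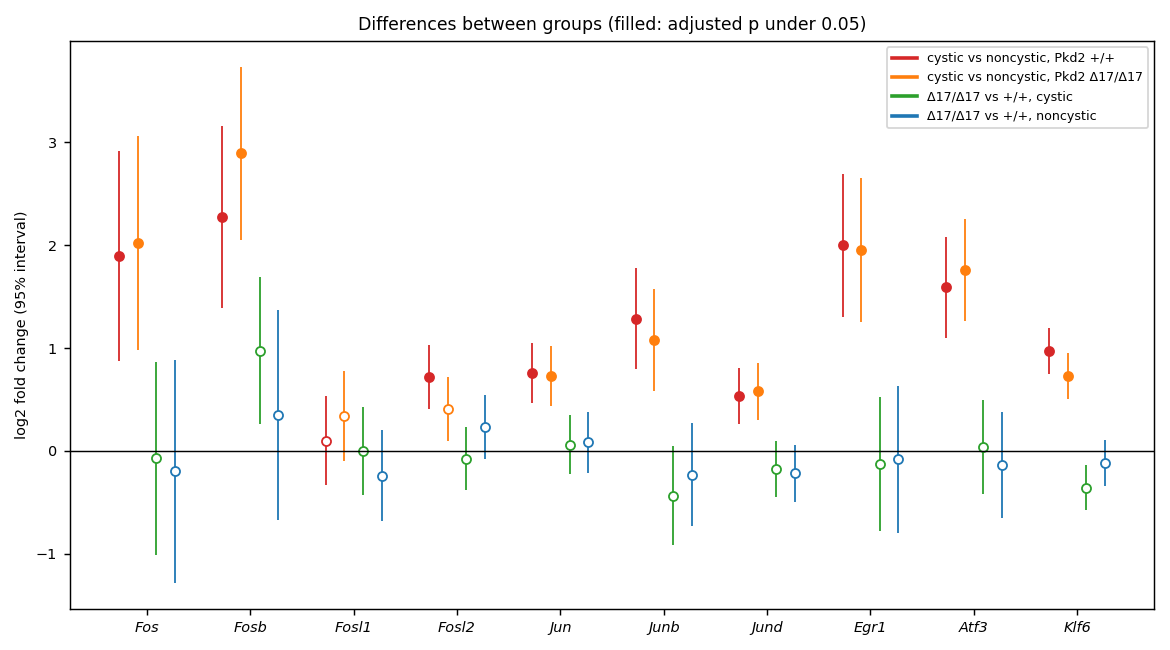
Log2 fold changes with 95% intervals from edgeR for the 10 genes in 4 comparisons, named by colour in the legend, where filled points have an adjusted p under 0.05. Red and orange (cystic against noncystic) are filled and above 0 for 9 and 8 genes, while green and blue (Δ17/Δ17 against +/+) are all open, with Fosb (0.98) and Klf6 (-0.36) the green intervals that do not include 0.

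The same question was asked in mice without the Pkd2 miR-17 motif. Between cystic and noncystic Pkd2 Δ17/Δ17 kidneys, 8 of the 10 genes were higher and 0 lower, where 12.8% of all genes tested were called higher. The median log2 fold change of the 10 was 0.91, beside 0.00 for all genes tested. Without overlap between the groups were also 8 genes, against 37.9% of all genes tested in either direction, but they were not the same 8 (Fos was called and overlapped, and Fosl1 was not called and did not overlap).

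Fos was at 1.36, 6.71 and 4.35 CPM in noncystic mice 22, 23 and 24 and at 5.82, 15.7 and 28.9 CPM in cystic mice 28, 29 and 30. Mouse 28 lay below noncystic mouse 23, and the log2 fold change was 2.02 (SE 0.49, edgeR adjusted p = 0.00575). It was 1.38 without mouse 30 (adjusted p = 0.0470), a fold over 1.5 times smaller. Fosb was at 0.599, 0.709 and 0.385 CPM in noncystic and at 2.12, 4.40 and 6.20 CPM in cystic mice, without overlap, and it again had the largest log2 fold change, 2.89 (SE 0.40, edgeR adjusted p = 5.09e-05).

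Egr1 was at 11.6, 26.9 and 17.8 CPM in noncystic and at 33.5, 69.3 and 115 CPM in cystic Pkd2 Δ17/Δ17 mice. The groups were separate with mouse 28 nearest to the noncystic mice (log2 fold change 1.95, SE 0.33, edgeR adjusted p = 0.000336). Atf3 was at 3.38, 3.49 and 6.16 CPM in noncystic and at 13.7, 13.2 and 17.2 CPM in cystic mice, with no cystic mouse near the noncystic ones (log2 fold change 1.76, SE 0.23, edgeR adjusted p = 3.77e-05). Junb, Jun, Jund and Klf6 rose by log2 fold changes of 1.08, 0.73, 0.58 and 0.73, with edgeR adjusted p-values from 8.09e-05 to 0.00327, and none of these 4 overlapped.

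Fosl2 did not pass the threshold here. It was at 52.6, 57.7 and 74.2 CPM in noncystic and at 65.0, 80.6 and 99.4 CPM in cystic mice, where noncystic mouse 24 lay above cystic mouse 28. The log2 fold change was 0.41 (SE 0.15, edgeR adjusted p = 0.0550), and it became 0.57 without mouse 24 (adjusted p = 0.0150) and 0.55 without mouse 28 (adjusted p = 0.0115). Fosl1 was at 2.83, 3.0 and 3.08 CPM in noncystic and at 3.51, 3.23 and 4.57 CPM in cystic mice, separate groups that nevertheless missed the threshold (log2 fold change 0.34, SE 0.21, edgeR adjusted p = 0.276).

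The deletion of the Pkd2 miR-17 motif was compared in cystic kidneys, with the same cystic Pkd2 +/+ mice as in the disease comparison above, so that the comparisons are not independent. Of the 10 genes, 0 passed edgeR's threshold, where 2.23% of all genes tested did. At an unadjusted p under 0.05 edgeR gave 2 genes (14.3% of all genes tested). Of the 10, limma-trend called 0 and DESeq2 called 1, where they called 564 and 1128 genes over the whole table and edgeR 549. The median log2 fold change of the 10 was -0.07, beside 0.00 for all genes tested.

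The pair with an unadjusted p under 0.05 went in opposite directions. Klf6 was at 122, 152 and 136 CPM in cystic Pkd2 +/+ mice and at 92.2, 107 and 121 CPM in cystic Pkd2 Δ17/Δ17 mice. The groups did not overlap, with mouse 30 and mouse 25 about 1 CPM apart, and 10.2% of all genes tested were lower without overlap. The log2 fold change of Klf6 was -0.36 (SE 0.10, edgeR adjusted p = 0.0876). It passed with DESeq2 (adjusted p = 0.0333), and in edgeR without mouse 25 (-0.44, adjusted p = 0.0310) or without mouse 30 (-0.46, adjusted p = 0.0293). These settings also called more genes over the whole table, 1128, 861 and 759 in that order, beside 549 in the main fit.

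Fosb was at 1.78, 2.15 and 2.54 CPM in cystic Pkd2 +/+ mice and at 2.12, 4.40 and 6.20 CPM in cystic Pkd2 Δ17/Δ17 mice. Mouse 28 lay among the Pkd2 +/+ mice and mice 29 and 30 above them (log2 fold change 0.98, SE 0.34, edgeR adjusted p = 0.167). Junb had the next smallest adjusted p, 0.412 (edgeR), with 61.1, 89.6 and 129 CPM in cystic Pkd2 Δ17/Δ17 mice and a log2 fold change of -0.44 (SE 0.23). The 95% intervals of Fos (-1.01 to 0.87) and Egr1 (-0.78 to 0.52) were wide enough to hold changes in either direction, while those of Jun (-0.23 to 0.35) and Jund (-0.44 to 0.10) were narrower.

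In noncystic kidneys the deletion gave 0 of the 10 genes past the threshold in edgeR, DESeq2 and limma-trend, and 0 at an unadjusted p under 0.05 in edgeR, where 0.00406% of all genes tested passed edgeR's threshold. The smallest adjusted p of the 10 was 0.787 (edgeR). The interaction, which asks whether the difference between cystic and noncystic kidneys depends on the Pkd2 genotype, also gave 0 of the 10 in the 3 tools and 0 at an unadjusted p under 0.05 in edgeR, where 0.0122% of all genes tested passed. Fosl2, called with intact Pkd2 and not with Pkd2 Δ17/Δ17, had an interaction of -0.31 on the log2 scale (SE 0.21, edgeR adjusted p = 0.750), and Klf6 one of -0.24 (SE 0.15, edgeR adjusted p = 0.716), so a difference between the genotypes was not shown.

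The genes differed in how far mice of 1 group stood apart. The pooled SD of log2CPM within groups was 0.86 for Fos, larger than that of 99.5% of 13692 well expressed genes (average log2CPM 1 or more), whose median SD was 0.14. It was 0.55 for Egr1, 0.49 for Fosb, 0.40 for Junb and 0.34 for Atf3, against 0.23 for Fosl2, 0.22 for Jun, 0.19 for Jund and Fosl1 and 0.15 for Klf6. Fosb, with an average log2CPM of 0.41, was below the level of these well expressed genes, so its SD cannot be set beside theirs, and Klf6 was close to an ordinary gene of this table (55.8% of genes had a smaller SD).

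For Fos and Egr1 the ranges were widest among Pkd2 Δ17/Δ17 mice. Fos covered a 4.96-fold range among cystic and a 4.92-fold range among noncystic Pkd2 Δ17/Δ17 mice, beside 1.53-fold among cystic and 1.93-fold among noncystic Pkd2 +/+ mice. Egr1 covered 3.43-fold and 2.33-fold ranges in the Pkd2 Δ17/Δ17 mice and 1.16-fold and 1.34-fold ranges in the Pkd2 +/+ mice. Whether the spread differs between genotypes was not tested.

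Within the cystic Pkd2 Δ17/Δ17 group, mouse 28 was lowest and mouse 30 highest for 7 of the 10 genes (Fos, Fosb, Fosl2, Jun, Junb, Egr1 and Klf6), an order that 18.6% of all genes tested had. The summed CPM of 11 macrophage markers in mice 28, 29 and 30 was 351, 358 and 484, and that of 7 tubule injury markers was 1127, 1274 and 1925, in the same order. Their part in the order of the 7 genes was not tested. In the noncystic Pkd2 Δ17/Δ17 group mouse 22 was lowest and mouse 23 highest for Fos, Jun, Junb and Egr1, an order that 20.5% of all genes tested had, and there the macrophage markers were at 232 CPM in mouse 22 and 203 CPM in mouse 23. Among cystic Pkd2 +/+ mice, mouse 25 was lowest and mouse 26 highest for Jun, Junb, Atf3 and Klf6 (20.8% of all genes tested). Fos ran the other way. The macrophage markers were at 507 CPM in mouse 25 and 682 CPM in mouse 26, and the injury markers at 2248 and 2840 CPM.

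**Figure D3:**
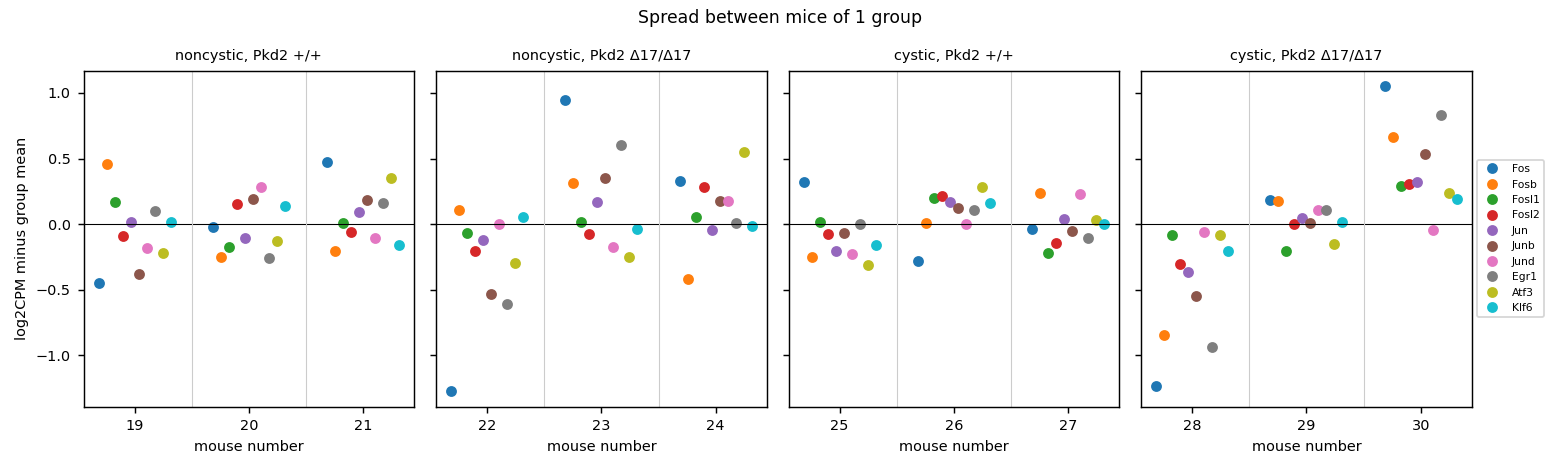
Deviation of each mouse from the mean of its group, in log2CPM, for the 10 genes (colours), 1 panel per group, with mouse numbers on the x axis that carry no order. Fos lies farthest out, at about -1.3 in mouse 22 and -1.2 in mouse 28, and most genes are below 0 in mouse 28 and above 0 in mouse 30.

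The deviations from the group means were used to ask which genes move with Fos from mouse to mouse. Over 12 mice, Junb had r = 0.92 and rho = 0.84 (exact permutation within groups, two-sided, p = 0.0123 and 0.0193), and Egr1 had r = 0.90 and rho = 0.75 (exact permutation p = 0.0239 and 0.0409). Adjusted by Benjamini-Hochberg over the 24641 other genes the p-values of r were 0.493 and 0.503, so neither passed. Jun had r = 0.69 and Fosl2 r = 0.58, Fosb r = 0.42, Atf3 r = 0.32, Fosl1 r = 0.29, Klf6 r = 0.16 and Jund r = -0.10. Among the 6 noncystic and the 6 cystic mice taken apart, Junb had r = 0.94 and 0.90, Egr1 r = 0.87 and 0.95, Jun r = 0.76 and 0.73 and Fosl2 r = 0.42 and 0.72. Fosb (r = -0.20 and 0.87) and Klf6 (r = -0.51 and 0.59) differed in sign between these classes, and Atf3 (0.42 and 0.17), Fosl1 (0.096 and 0.42) and Jund (-0.12 and -0.067) were lower than those of Junb, Egr1 and Jun in both.

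Mice 22 and 28 had the Fos deviations farthest from the median. Without them r was 0.71 for Junb (exact permutation p = 0.222) and 0.63 for Egr1 (exact permutation p = 0.236), so with 10 mice the direction stayed and neither relation passed. With any 1 mouse left out, r was 0.87 to 0.96 for Junb and 0.83 to 0.94 for Egr1. Among the well expressed genes, leaving out the 10, the most like Fos were Pxk (r = 0.95), Mlxip (r = 0.93) and Wdfy2 (r = 0.92). None of the 3 passed the adjustment (adjusted p = 0.366, 0.426 and 0.454, exact permutation), and 0.000772 is the smallest p that the 1296 arrangements can give.

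Other genes of the pathway were read from lists, beginning with other factors that dimerize with or resemble AP-1. In cystic against noncystic Pkd2 +/+ kidneys, 3 of 19 such partners were higher and 3 lower, with a median log2 fold change of 0.03. Over all genes tested 16.9% were higher and 14.2% lower in this comparison, with a median of 0.02, so the partners were close to the table as a whole. Higher were Maff, a small Maf protein (1.13, SE 0.22, edgeR adjusted p = 0.000804), Nfe2l2, the antioxidant response factor Nrf2 (0.38, SE 0.07), and Batf (1.004, SE 0.33). Among the lower genes were Maf, a large Maf protein (-1.09, SE 0.13, edgeR adjusted p = 8.66e-06), and Atf2 (-0.24, SE 0.08). Batf and Atf2 fell outside the naming rule and were chosen after their values were seen.

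Of 35 other immediate early genes, 15 were higher and 8 lower in cystic Pkd2 +/+ kidneys, with a median log2 fold change of 0.28, beside 16.9% higher and 14.2% lower over all genes tested. Egr2, a relative of Egr1, stood at 0.571 to 0.814 CPM in noncystic kidneys and rose to between 10.7 and 11.3 CPM in cystic ones (3.98, SE 0.44, edgeR adjusted p = 3.27e-06). Socs3, the feedback inhibitor of STAT3 signalling, rose from 5.47 to 9.72 CPM to 65.8 to 85.4 CPM (3.31, SE 0.26, edgeR adjusted p = 1.02e-07). Sgk1, a kinase of sodium transport that corticosteroids induce, fell by 1.17 on the log2 scale (SE 0.18, edgeR adjusted p = 6.47e-05), and Errfi1, an inhibitor of the EGF receptor, fell by 0.74 (SE 0.13). The list thus held called genes in both directions, and Dusp1, which also belongs to the feedback inhibitors, was among the lower ones.

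Upstream, 5 of 22 MAP kinase and SRF pathway genes were higher and 2 lower, with a median log2 fold change of 0.07, beside 16.9% and 14.2% of all genes tested. Map3k1, a kinase of the JNK branch, rose by 1.28 (SE 0.11, edgeR adjusted p = 2.32e-07) and Rps6ka1, an ERK effector kinase, by 0.89 (SE 0.08). The JNK and p38 genes Mapk9 (-0.28, SE 0.08, edgeR adjusted p = 0.0104) and Mapk14 (-0.24, SE 0.08, edgeR adjusted p = 0.0245) were lower. With library totals in place of TMM, which shifts the median gene by 0.16 on the log2 scale, 12 of the 22 were higher and 0 lower, where 25.4% of all genes tested were higher. Mapk9 (-0.12) and Mapk14 (-0.08) then no longer passed, nor did they with limma-trend. The Mapk9 call was also lost without mouse 27 and the Mapk14 call without mouse 21, 26 or 27.

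Of 15 feedback inhibitors of MAP kinases, 4 were higher and 1 lower, with a median log2 fold change of 0.26, beside 16.9% and 14.2% of all genes tested. With library totals 9 were higher and 0 lower, beside 25.4% of all genes tested higher. The phosphatase genes Dusp8 (1.67, SE 0.22, edgeR adjusted p = 1.40e-05) and Dusp5 (1.58, SE 0.24, edgeR adjusted p = 8.34e-05) rose. Dusp1, an immediate early phosphatase often induced with Fos, was at 93.3 to 128 CPM without and 62.9 to 87.6 CPM with cysts and was lower (-0.62, SE 0.20, edgeR adjusted p = 0.0271). Its call was lost with library totals (-0.46, adjusted p = 0.0994), limma-trend (adjusted p = 0.101) and Xist as a covariate (adjusted p = 0.0537), and without mouse 21, 26 or 27.

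Of 24 genes known as AP-1 targets, 15 were higher and 2 lower, where 16.9% and 14.2% of all genes tested were. The median log2 fold change of the 24 was 1.01, and whether AP-1 drove these changes was not tested. Lif, a cytokine of the interleukin-6 family, rose by 3.67 (SE 0.35, edgeR adjusted p = 7.67e-07) and Timp1, an inhibitor of matrix metalloproteinases, by 3.45 (SE 0.39, edgeR adjusted p = 3.38e-06). Vegfa, the endothelial growth factor, was lower (-0.45, SE 0.14, edgeR adjusted p = 0.0187), though not with library totals (-0.29, adjusted p = 0.132), with limma-trend (adjusted p = 0.100) or without mouse 19, 26 or 27. Mmp9, the other lower gene (-2.66, SE 0.34), fell outside the naming rule and was chosen after its values were seen. Of 10 heat shock genes, chaperones that respond to protein damage, 1 was higher (Hsp90aa1, 0.29, SE 0.09, a call lost without any of mice 19, 20, 21, 26 and 27 and in a fit of the compared groups alone) and 3 were lower, with Hspe1 (-0.74, SE 0.10) and Hspd1 (-0.67, SE 0.08) foremost, both mitochondrial chaperones.

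**Figure D4:**
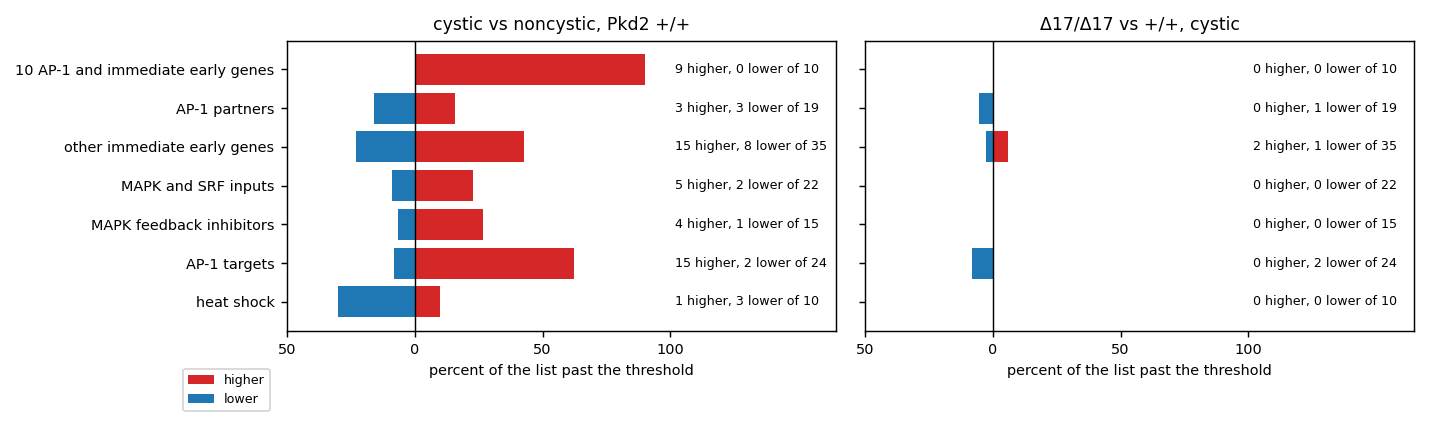
Share of each gene list past the threshold of an edgeR adjusted p of 0.05, in percent, with higher genes to the right of 0 and lower genes to the left, for cystic against noncystic Pkd2 +/+ kidneys (left) and for Δ17/Δ17 against +/+ in cystic kidneys (right). In the left panel 9 of the 10 AP-1 and immediate early genes and 15 of 24 AP-1 targets extend right, while in the right panel at most 3 genes of a list are called.

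With the Pkd2 motif deleted in cystic kidneys, few genes of these lists were called, and 2.23% of all genes tested were called in either direction. Of the 35 other immediate early genes, 2 were higher and 1 lower. Nr4a1, an orphan nuclear receptor induced like Fos, was at 15.8 to 20.8 CPM in cystic Pkd2 +/+ and at 27.02 to 94.4 CPM in cystic Pkd2 Δ17/Δ17 mice (1.57, SE 0.38, edgeR adjusted p = 0.0411), but the value was 0.91 without mouse 30 (adjusted p = 0.157). Its call was also lost without mouse 24, 26, 27 or 29, and with filterByExpr, limma-trend, a fit of the compared groups alone and Xist as a covariate. Sik1, a salt-inducible kinase gene, was higher by 0.41 (SE 0.10, edgeR adjusted p = 0.0421), a call that was lost without mouse 19, without each of mice 26 to 30, and with library totals, limma-trend and a fit of the compared groups alone.

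Socs3 was lower by a log2 fold change of -1.11 (SE 0.23, edgeR adjusted p = 0.0191) and Vim, an intermediate filament gene and 1 of 2 AP-1 targets called, by -0.36 (SE 0.08, edgeR adjusted p = 0.0281). The Socs3 call was lost without each of mice 26 to 29 and the Vim call without each of mice 26 to 30, and both were lost in a fit of the compared groups alone. The other AP-1 target was Ccl2 (-1.61, SE 0.34), and 1 AP-1 partner, Batf2, was lower (-1.71, SE 0.41), both outside the naming rule and chosen after their values were seen. Of the 24 targets 0 were higher, and their median log2 fold change was -0.35. None of the MAP kinase inputs, feedback inhibitors and heat shock genes passed (0 of 22, 0 of 15 and 0 of 10 in edgeR). DESeq2 gave 2, 0 and 2 in these lists.

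Marker transcripts of several cell types and of tubule injury differed in these comparisons, and cell numbers were not measured. In cystic against noncystic Pkd2 +/+ kidneys 16.9% of all genes tested were called higher and 14.2% lower. There 11 of 11 macrophage markers were higher, with a summed level of 203 to 217 CPM without and 507 to 682 CPM with cysts, and no macrophage marker was at 0. Of the tubule injury markers 6 of 7 were higher (667 to 740 CPM against 2248 to 2840 CPM), and of the fibroblast markers 5 of 8 were higher and 1 lower (1942 to 2156 CPM against 3211 to 4871 CPM). Lower were 8 of 8 proximal tubule markers (7306 to 9050 CPM against 2781 to 3929 CPM), 5 of 8 endothelial markers (895 to 992 CPM against 637 to 733 CPM) and 6 of 6 red blood cell markers (592 to 970 CPM against 250.8 to 353 CPM). Of 11 epithelial markers of several segments 1 was higher and 6 were lower, and of 8 markers of adrenal and fat tissue 4 were lower. Mitochondrial reads were 6.04 to 6.60% without and 3.06 to 3.97% with cysts in mice of both Pkd2 genotypes. The part of these in the rise of the 9 genes was not tested.

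With the motif deleted in cystic kidneys, 4 of 11 macrophage markers (507 to 682 CPM in Pkd2 +/+ and 351 to 484 CPM in Pkd2 Δ17/Δ17 mice) and 4 of 7 tubule injury markers (2248 to 2840 CPM and 1127 to 1925 CPM) were lower, beside the lower Klf6 values. Of the proximal tubule markers 3 of 8 were higher there, where 2.23% of all genes tested were called in either direction. The part of these markers in the Klf6 values was not tested.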

How the data were processed

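Whole-kidney RNA was sequenced from 12 mice. The authors trimmed reads with Trim Galore 0.6.3, aligned them to GRCm38 with STAR 2.5.3a and deposited STAR's counts per gene for Ensembl gene models, raw whole numbers that are not normalized. The strand column was not given in the sources used here. Reads on 343 genes without a name made up 0.0225% of all reads, and these genes went through the same filter and tests as the others.

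From these counts, genes with an average log2CPM (prior count 2) of at least -3 were kept, as in the study. edgeR 4.0.16 (R 4.3.3) fitted the 4 group means to all 12 mice together (residual degrees of freedom 8), using TMM factors and the quasi-likelihood test, Benjamini-Hochberg adjusted, threshold 0.05. The study's limma-trend (limma 3.58.1, library totals, prior count 3) and DESeq2 1.42.0 were alternatives, since the deposited values are counts. The other alternatives were library totals, DESeq2 size factors, no filter, filterByExpr, a fit of the compared groups alone, Xist as a covariate and each mouse left out. RPKM used merged exons of GENCODE M21, in which 99.8% of genes were found. The correlations with Fos were adjusted over all genes. The p-values of group differences set each difference against the spread between mice, which the fit with no filter understated. Those of the correlations come from permuting the Fos values within groups. Whether mice shared a litter is not given in the sources used here.

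The 10 genes and all lists were chosen with earlier results of these data known. Named from each list were the 2 genes with the largest rise and the 2 with the largest fall among those past the threshold with an average log2CPM of at least 1, in the disease comparison and in the deletion comparison in cystic kidneys. A gene that this rule names is not reported here.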

Additional observations from a re-analysis of the deposited data

How the results depend on the processing

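The 9 rises in cystic against noncystic Pkd2 +/+ kidneys kept their direction and passed the threshold under all 20 alternatives each, and so did the 8 in Pkd2 Δ17/Δ17 kidneys. Fosl2 in Pkd2 Δ17/Δ17 kidneys was called with library totals (0.56), DESeq2 (0.38), limma-trend (0.55), no filter (0.41) and without mouse 24, 25, 26 or 28. Depth limited Fosb in noncystic mice. With no filter the count for the deletion in cystic kidneys was 3 (Fosb, Junb and Klf6) and 1639 genes were called over the whole table, beside 549, as the median SE of the 10 genes fell from 0.21 to 0.10. Fos, whose pooled SD within groups was 0.86, had an SE of 0.16 there, beside 0.44 in the main fit. The p-values of the fit with no filter, also for the rises above, thus understate the spread between mice. With DESeq2 the count for this deletion was 1 (Klf6), where 1128 genes were called over the whole table, and it was 0 to 1 with a mouse left out. The gene lists gave, for the same deletion, 3 partners, 11 immediate early genes, 2 inputs, 2 feedback inhibitors, 7 targets and 1 heat shock gene with no filter. DESeq2 gave 5 immediate early genes, 2 inputs and 2 heat shock genes, and limma-trend 1 immediate early gene. With the compared groups only there were 0 partners, 0 immediate early genes and 0 targets, and with Xist 0 partners and 4 targets. With a mouse left out the counts were 0 to 1 partners, 0 to 4 immediate early genes, 0 to 1 inputs, 0 to 5 targets (0 without mouse 26, 28 or 29, 1 without mouse 27 and 5 without mouse 30) and 0 to 1 heat shock genes. In the disease comparison library totals and limma-trend each gave 12 inputs and 9 feedback inhibitors, and with a mouse left out there were 4 to 8 inputs (4 without mouse 26), 3 to 6 feedback inhibitors (3 without mouse 27) and 15 to 24 immediate early genes (15 without mouse 26). Some values that never passed changed sign. Not all of them were near 0, as r to Fos was 0.58 for Fosl2 and 0.42 for Fosb with all mice. Fosl1 with the deletion in cystic kidneys (0.0011) was -0.0013 with DESeq2 size factors, -0.0010 with no filter and -0.00069 with DESeq2. With Xist as a covariate Atf3 was -0.078 for the deletion in cystic kidneys, Fos was 0.032 for it in noncystic kidneys, and the interactions of Fos, Jund and Atf3 were -0.42, -0.12 and -0.035. Without the pair of mice farthest from the median of Fos, r to Fos was -0.10 for Fosl2 and -0.31 for Klf6. With a mouse left out, values for the deletion in cystic kidneys ran from -0.11 to 0.19 (Atf3), -0.63 to 0.21 (Egr1), -0.71 to 0.34 (Fos), -0.16 to 0.11 (Fosl1), -0.24 to 0.066 (Fosl2) and -0.11 to 0.22 (Jun). In noncystic kidneys they ran from -0.47 to 0.068 (Atf3), -0.44 to 0.16 (Egr1), -0.74 to 0.20 (Fos) and -0.0097 to 0.13 (Jun). The interactions ran from -0.032 to 0.51 (Atf3), -0.55 to 0.32 (Egr1), -0.51 to 0.68 (Fos), -0.19 to 0.14 (Jun), -0.51 to 0.026 (Junb) and -0.10 to 0.17 (Jund). Fosl1 in the disease comparison ran from -0.0081 to 0.20. The r to Fos ran from -0.090 to 0.63 (Fosb), -0.10 to 0.42 (Fosl1), -0.23 to 0.11 (Jund) and -0.33 to 0.34 (Klf6). The cause of these changes was not tested. No paired analysis was made, since the labels give no pairing of mice between groups.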
